A study of Arabidopsis thaliana with 12 samples.

Results

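The comparison set 3 whole-seedling RNA sequencing libraries labelled hira-1 against the 3 wild-type Columbia-0 (Col-0) libraries of the same experiment, which the sample titles call group 1. It covered every gene that passed an expression filter, 18739 of the 32833 genes in the count table, and used 6 of the 12 libraries of the series. The other 6 libraries form a separate experiment (group 2) with fas2-4, a mutant in a subunit of chromatin assembly factor 1, and its own Col-0 plants. Both groups were raised in long days at about 21 °C on a soil mixture, from seed kept at 4 °C for 4 days, and whole seedlings were taken 12 days after germination. No other treatment is given for either group. The labels do not give the kind of mutation in hira-1, nor whether replicates came from separate plants or pools, so the p-values measure only the spread between these libraries.

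HIRA is a histone chaperone. It brings the replacement histone H3.3, together with H4, to DNA outside S phase, while chromatin assembly factor 1 brings the canonical histone H3.1 to newly replicated DNA. H3.3 lies mainly over transcribed genes in Arabidopsis, and ASF1 proteins hand H3-H4 dimers to both chaperones. A seedling library mixes the tissues that were taken, so fewer cells of a type and less RNA per cell cannot be told apart.

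The HIRA transcript (AT3G44530, chr3:16115498-16121534, plus strand, TAIR10.1) did not fall in the libraries labelled hira-1. In Col-0 replicates 1, 2 and 3 it stood at 10.1, 13.3 and 9.17 CPM, the count scaled by library size with TMM factors. The libraries labelled hira-1 held 11.7, 12.7 and 23.7 CPM. The groups overlapped, and the highest value was in replicate 3 of the hira-1-labelled libraries. The log2 fold change was 0.56 (SE 0.30, adjusted p = 0.198), where adjusted p is that of edgeR's quasi-likelihood test with Benjamini-Hochberg adjustment over all genes tested, here and below. After the correction for transcript length described next, the log2 fold change was 1.51 (adjusted p = 0.0487 in edgeR), and 1.32 (adjusted p = 0.0226) when replicate numbers were also entered as a block. With each library left out in turn, the length-corrected test called HIRA in 1 of 6 fits (highest adjusted p 0.174). Because the targeted transcript was not lower, the group is called by its label throughout, and every direction below is that of the libraries so labelled.

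The 6 libraries were close in depth, with 20700171 to 21902258 counts each, and differed in how they recovered long and short transcripts. Genes were ordered by exon length and split into 10 equal parts (deciles). In the shortest decile (29 to 908 nt) the median log2 fold change between the groups was 0.57, and in the longest decile (3216 to 16614 nt) it was -0.81. Across 18734 genes Spearman's rho between length and log2 fold change was -0.556, given as a description because genes are not independent replicates. The trend was present within genotypes as well. Relative to the mean of the 6 libraries, rho with length was 0.515, 0.557 and 0.056 in Col-0 replicates 1, 2 and 3. It was -0.401, 0.008 and -0.596 in the hira-1-labelled libraries. Replicate 3 of Col-0 and replicate 2 of the hira-1-labelled libraries had like profiles, with rho = -0.029 for their difference. In the fas2-4 experiment rho for the fold change was -0.046. The source of the length profiles was not tested. Results below are given as counted. Many are also given after a smooth curve of each library on length was taken out, which left rho at -0.008. A value given only as counted may also differ after this correction.

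**Figure D1:**
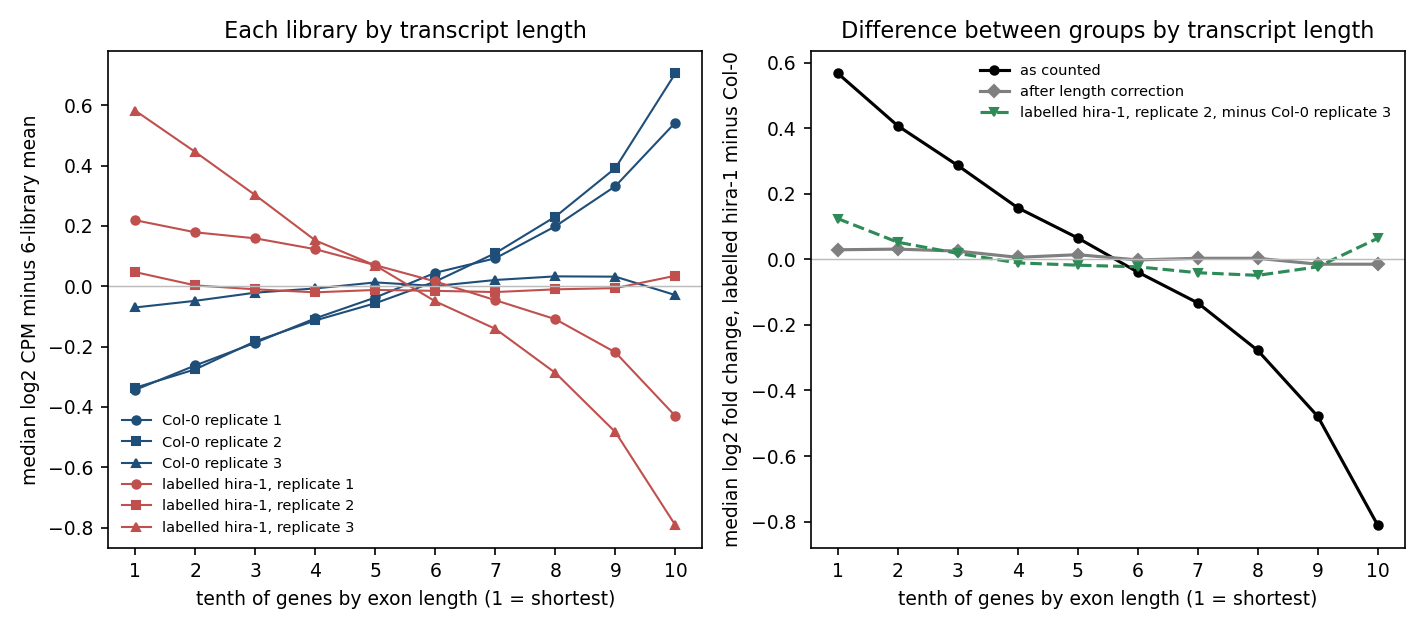
Median log2 CPM of each library relative to the 6-library mean (left) and median log2 fold change between the groups (right), for 10 equal parts of the genes by exon length. Lines on the left are single libraries, and lines on the right are the difference as counted, after length correction, and in the pair of libraries with like profiles. The difference as counted falls from 0.57 in the shortest decile to -0.81 in the longest, while Col-0 replicate 3 and replicate 2 labelled hira-1 stay near 0.

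In the counts as deposited, 2575 genes (13.7% of those tested) differed between the groups at an adjusted p under 0.05, of which 1300 (6.94%) were higher and 1275 (6.8%) lower in the hira-1-labelled libraries. Changes of at least 2-fold were found for 620 of the higher and 768 of the lower genes. In the shortest decile of genes 390 were called higher and 35 lower, and in the longest decile 12 were called higher and 368 lower. With the length correction 1898 genes were called (942 higher, 5.03%, and 956 lower, 5.1%), and 1354 of them had the same call as counted, which is 52.6% of the first set and 71.3% of the second. A block for the replicate number raised the count from 2575 to 9593 (51.2%), and the block with the length correction gave 7204 (3733 higher, 3471 lower). Called as counted, with the length correction, and with correction and block together were 706 higher genes (3.77%) and 642 lower genes (3.43%), together 7.19% of genes tested. The counts rested on single libraries. Without Col-0 replicate 1 the test called 19 genes, without Col-0 replicate 2 it called 50, and without replicate 1 of the hira-1-labelled libraries it called 29. Without replicate 3 of the hira-1-labelled libraries it called 443, without Col-0 replicate 3 3553, and without replicate 2 of the hira-1-labelled libraries 5021.

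For 17 genes the call held without each library in turn. These genes (0.0907% of genes tested) were called in one direction as counted, with length correction and block together, and in each of the 6 fits that left out a library. Of these, 13 were higher (0.0694%) and 4 lower (0.0213%) in the hira-1-labelled libraries. When the length correction was kept in all of these fits, 105 genes were called throughout (0.56%), 35 higher (0.187%) and 70 lower (0.374%), among them all 17. Most of the 13 higher ones were near 0 in Col-0. Most, though not the same ones throughout, encode proteins with no annotated function or long non-coding RNAs. The 4 lower ones include HO3, a heme oxygenase, and PRPL28, plastid ribosomal protein L28. All 17 had the same direction in the pair of libraries with like length profiles, which were among those used to choose them. The groups did not overlap for any of the 17, as their choice makes likely, and did not overlap for 38.6% of all genes tested.

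**Figure D2:**
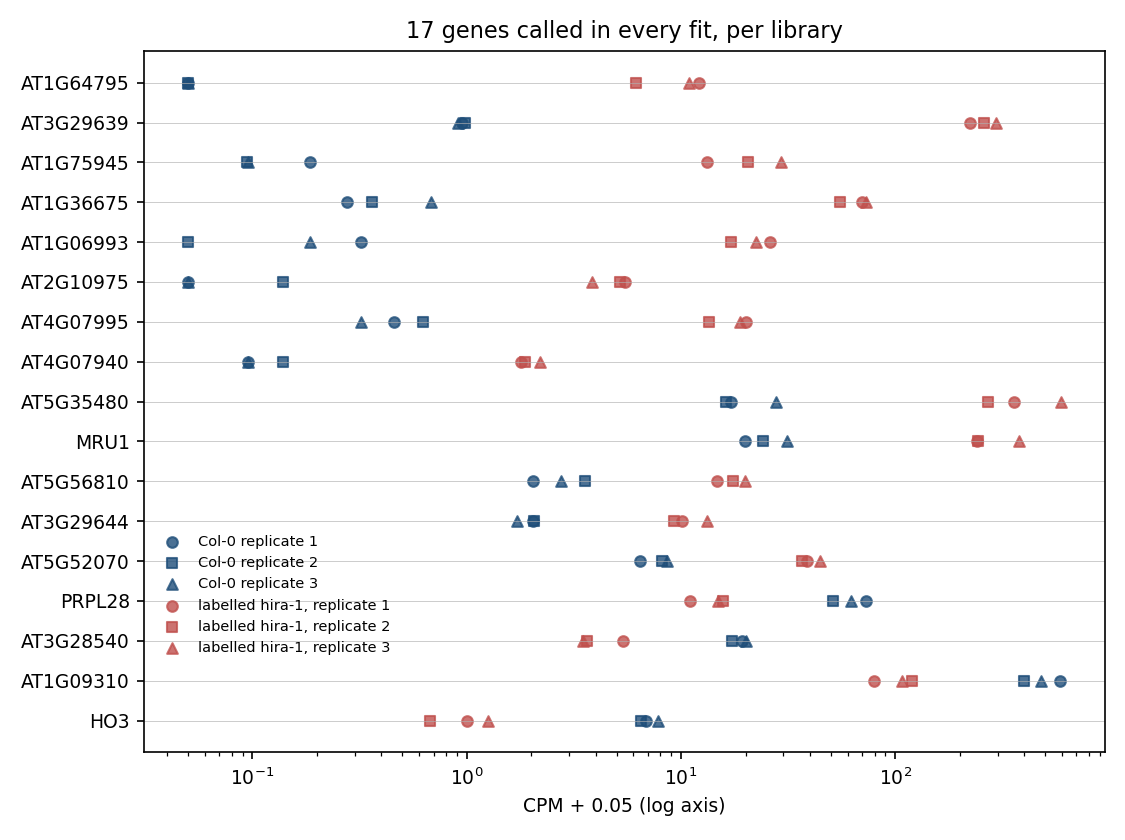
CPM of the 17 genes called in every fit, with 0.05 CPM added, on a log axis, 1 symbol per library (blue for Col-0, red for libraries labelled hira-1). Genes are ordered by fold change. No red symbol falls among the blue ones of the same gene, and AT3G29639 spans from under 1 CPM to 294 CPM.

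Of the 17, AT3G29639 (chr3:11478633-11480033, minus strand) had the smallest adjusted p. It encodes an uncharacterized protein. It stood at 0.905, 0.932 and 0.858 CPM in Col-0 and at 222, 258 and 294 CPM in the hira-1-labelled libraries. Every library labelled hira-1 was far above every Col-0 library, and the log2 fold change was 8.16 (SE 0.24, adjusted p = 7.46e-07). AT1G36675 (chr1:13867568-13869490, plus strand), annotated as a glycine-rich protein, stood at 0.226, 0.311 and 0.632 CPM in Col-0 and at 70.1, 54.9 and 72.7 CPM in the hira-1-labelled libraries. Its log2 fold change was 7.38 (SE 0.34, adjusted p = 2.73e-05). AT2G10975 (chr2:4334959-4335909, plus strand), an uncharacterized protein gene of low level, had 0, 0.0887 and 0 CPM in Col-0 and 5.44, 5.16 and 3.81 CPM in the hira-1-labelled libraries (log2 fold change 7.07, SE 0.64, adjusted p = 0.00255).

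AT1G36675 resembled both AT2G10975 and AT3G29639 in sequence, while those 2 did not align with each other above the threshold (score 25, against 100). The likeness was looked for after their values were seen. The gene bodies of AT1G36675 and AT2G10975 (annotated start to end) aligned over 906 bases with 82.5% identity. AT1G36675 and AT3G29639 shared a stretch of 240 aligned bases at 83.3% identity within their bodies. A search of 32548 gene bodies with the 243 bases of AT1G36675 that hold this stretch found 3 other genes that scored at least 100, namely AT3G29639, AT3G29631 and AT3G05845, and no further gene scored over 47. AT3G29631, an uncharacterized protein gene close to AT3G29639, had 0 counts in each Col-0 library and 18, 19 and 19 counts in the hira-1-labelled libraries (adjusted p = 0.0175). The bodies of AT3G29631 and AT3G29639 aligned over 180 bases with 95.6% identity, and AT3G29639 had 15875 counts in the hira-1-labelled libraries. The counts of AT3G29631 could therefore be reads of AT3G29639, which was not tested. AT3G05845, annotated as a long non-coding RNA, had 0 counts in all 6 libraries.

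Genes that rose lay next to each other in several places, but not in all. No gene tested within 20 kb of AT1G64795, AT2G10975, AT4G07940, AT4G07995 or AT5G56810 was called higher as counted. AT3G29639 has 3 tested genes within 20 kb. All 3 were called higher as counted (6.94% of all genes) and in the fit with length correction and block (19.9% of all genes). They are AT3G29631, AT3G29638 (log2 fold change 4.55, adjusted p = 0.00674) and the long non-coding RNA gene AT3G29644 (chr3:11498879-11501424, minus strand). As said above, the counts of AT3G29631 could be reads of AT3G29639. AT3G29644 stood at 1.99, 2.0 and 1.67 CPM in Col-0 and at 10.1, 9.25 and 13.1 CPM in the hira-1-labelled libraries, and it was called in every fit (log2 fold change 2.51, SE 0.26, adjusted p = 0.00399). On chromosome 1, 2724 nt downstream of AT1G36675, the long non-coding RNA gene AT1G06993 (chr1:13872214-13872516, plus strand) had 0.271, 0 and 0.135 CPM in Col-0 and 25.9, 17.1 and 22.3 CPM in the hira-1-labelled libraries (log2 fold change 7.27, SE 0.53, adjusted p = 6.74e-04). No other gene within 20 kb of that pair passed the filter. Of the 50-base words in the exons of AT3G29639, 16.1% occur elsewhere in the genome, so part of its count could come from a copy. For the other 16 genes that share was 2.72% or less. The 200 bases before the start of AT3G29639 (TAIR10.1, chr3:11480034-11480233, minus strand) are shown because of that smallest adjusted p. Capitals mark TATAAA or its reverse complement TTTATA, which overlap here.
AT3G29639: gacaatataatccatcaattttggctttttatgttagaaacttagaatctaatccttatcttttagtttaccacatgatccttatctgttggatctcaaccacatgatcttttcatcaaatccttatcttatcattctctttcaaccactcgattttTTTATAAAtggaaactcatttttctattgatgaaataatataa
TATAAA on either strand occurs in the 200-base windows of 7 of the 13 higher genes and in 39.0% of the windows of 18632 tested nuclear genes.

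AT5G35480 and MRU1, whose starts face away from each other across a short shared region, both rose. MRU1 (AT5G35490, chr5:13689817-13690548, plus strand) is annotated as MTO 1 RESPONDING UP 1, and AT5G35480 (chr5:13687847-13689596, minus strand) encodes an uncharacterized protein. They are read in opposite directions and their annotated starts lie 221 nt apart. AT5G35480 stood at 17, 16.2 and 27.7 CPM in Col-0 and at 357, 270.0 and 594 CPM in the hira-1-labelled libraries (log2 fold change 4.33, SE 0.36, adjusted p = 0.00139). MRU1 stood at 19.9, 24.1 and 31.1 CPM in Col-0 and at 241, 243 and 376 CPM in the hira-1-labelled libraries (log2 fold change 3.52, SE 0.26, adjusted p = 7.25e-04). In both genes the highest library of each group was replicate 3, and the groups were far apart. AT5G35510, a protein-coding gene, lies within 20 kb of both and was also called higher (log2 fold change 3.05, adjusted p = 0.015), while the tested neighbours AT5G35450, AT5G35460, MIS12, AT5G35525 and AT5G35530 were not called as counted. MRU1 had been placed in a list of epigenetically silenced loci. Of that list QQS, an orphan gene of starch metabolism, had a log2 fold change of 0.80 and did not pass the test (adjusted p = 0.0978, and 0.0101 with the replicate block), and SDC and FWA were not tested. Most of the region between the starts is shown from the side of MRU1 (chr5:13689617-13689816, plus strand), since both genes share it. Capitals mark TTTATA, which read on the other strand is the TATAAA upstream of AT5G35480.
MRU1: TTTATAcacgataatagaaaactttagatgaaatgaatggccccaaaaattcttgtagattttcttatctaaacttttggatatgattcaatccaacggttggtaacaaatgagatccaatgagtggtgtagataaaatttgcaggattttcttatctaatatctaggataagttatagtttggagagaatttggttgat

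The remaining 6 of the higher genes were unrelated in annotation. AT5G52070 (chr5:21161132-21165565), which encodes an Agenet domain protein, stood at 6.38, 8.07 and 8.54 CPM in Col-0 and at 38.6, 36.7 and 44.4 CPM in the hira-1-labelled libraries. Its exons add up to 3289 nt, in the longest decile of genes, and its rise (log2 fold change 2.38, SE 0.19, adjusted p = 0.00109) went against the length trend. The F-box gene AT5G56810 rose from 2.0, 3.5 and 2.7 CPM to 15, 17 and 20 CPM (log2 fold change 2.66, SE 0.27, adjusted p = 0.00399). AT4G07940, annotated as a CWC22-like splicing factor, and AT4G07995, uncharacterized, lie 48579 nt apart on chromosome 4. AT4G07995 had 0.407, 0.577 and 0.271 CPM in Col-0 and 20, 13.4 and 18.7 CPM in the hira-1-labelled libraries (log2 fold change 5.35, SE 0.34, adjusted p = 2.51e-04), and AT4G07940 reached 1.75, 1.82 and 2.14 CPM there (log2 fold change 4.86). AT1G75945 had 0.136, 0.0444 and 0.0452 CPM in Col-0 and 13.1, 20.5 and 29.1 CPM in the hira-1-labelled libraries (log2 fold change 8.02, SE 0.51, adjusted p = 2.51e-04). AT1G64795 had no count in any Col-0 library. It had 242, 137 and 208 counts with the hira-1 label, at least 211-fold higher against a floor of 3 counts over the group. It lies inside the span of AT1G64790 (ILA), and whether strand was used in counting is not given, so its reads could belong to that gene, whose log2 fold change was -0.51 as counted (not called) and 0.80 after length correction (adjusted p = 0.0345).

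HO3 showed the largest fall of the 4 lower genes. HO3 (AT1G69720, chr1:26226731-26228580, plus strand) encodes a heme oxygenase, which opens heme to biliverdin on the way to the phytochrome chromophore. It stood at 6.83, 6.48 and 7.77 CPM in Col-0 and at 0.948, 0.622 and 1.2 CPM in the hira-1-labelled libraries (log2 fold change -2.93, SE 0.31, adjusted p = 0.00488). The groups were well apart, and the fall was as large with length correction and block (-3.16). AT1G09310 (chr1:3008910-3009898), a DUF538 protein of unknown function and the most abundant of the 17 in Col-0, stood at 589, 400 and 478 CPM in Col-0 and at 79.7, 120.0 and 108 CPM in the hira-1-labelled libraries. Its log2 fold change was -2.25 (SE 0.22, adjusted p = 0.00399). PRPL28 (AT2G33450, chr2:14173579-14174656) fell from 73.3, 51.4 and 61.8 CPM to 11, 15.6 and 14.8 CPM (log2 fold change -2.17, SE 0.21, adjusted p = 0.00399). AT3G28540 (chr3:10694175-10696249), a P-loop nucleoside triphosphate hydrolase, fell from 19.3, 17.2 and 20 CPM to 5.29, 3.60 and 3.44 CPM (log2 fold change -2.20, SE 0.23, adjusted p = 0.00488). At 989 and 749 nt of exons, AT1G09310 and PRPL28 are in the 2 shortest deciles, where more genes were called higher than lower. HO3, AT1G09310, PRPL28 and AT5G52070 overlap another counted gene, so their values are uncertain to the extent that reads of the 2 genes were not separated.

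The 17 genes were also read in the fas2-4 experiment, where the difference between the effects was tested in 1 model over all 12 libraries. The effect in the hira-1-labelled libraries differed from that of fas2-4 for 14 of the 17, against 11.6% of the 20152 genes in that test (5.73% with a higher and 5.84% with a lower effect). The 17 were chosen on the first of the effects compared, so this share is a description. MRU1 fell in fas2-4, from 29.1, 36.4 and 29.5 CPM in Col-0 of group 2 to 6.07, 5.79 and 6.01 CPM (log2 fold change -2.41, adjusted p = 7.4e-05), opposite to its rise in the hira-1-labelled libraries. AT5G35480 did the same, with a log2 fold change of -2.62 in fas2-4 (adjusted p = 6.37e-04). AT3G28540 rose in fas2-4 (log2 fold change 1.59, adjusted p = 0.00681) and AT5G52070 fell there (-0.78, adjusted p = 0.0145), both again opposite to the hira-1-labelled libraries. AT3G29639 stayed between 0.182 and 0.380 CPM in all 6 libraries of the other experiment, and AT1G36675 had 3 to 9 counts in each of them. AT4G07940 rose in fas2-4 as well (2.25, adjusted p = 0.018), by less than here (difference 2.69, adjusted p = 0.0373). Its difference did not pass with length correction (adjusted p = 0.104). AT1G75945 also rose in both, by 8.04 (SE 0.46) on the log2 scale in fas2-4 and by 8.02 (SE 0.51) here. The difference was 0.06 (adjusted p = 0.998), without an SE because the SE used here fails for values near 0. AT1G64795 and AT2G10975 did not pass the test of the difference (adjusted p = 0.0511 and 0.112). HIRA itself did not pass as counted (0.71, SE 0.34, adjusted p = 0.167) and passed with length correction (adjusted p = 0.0336).

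**Figure D3:**
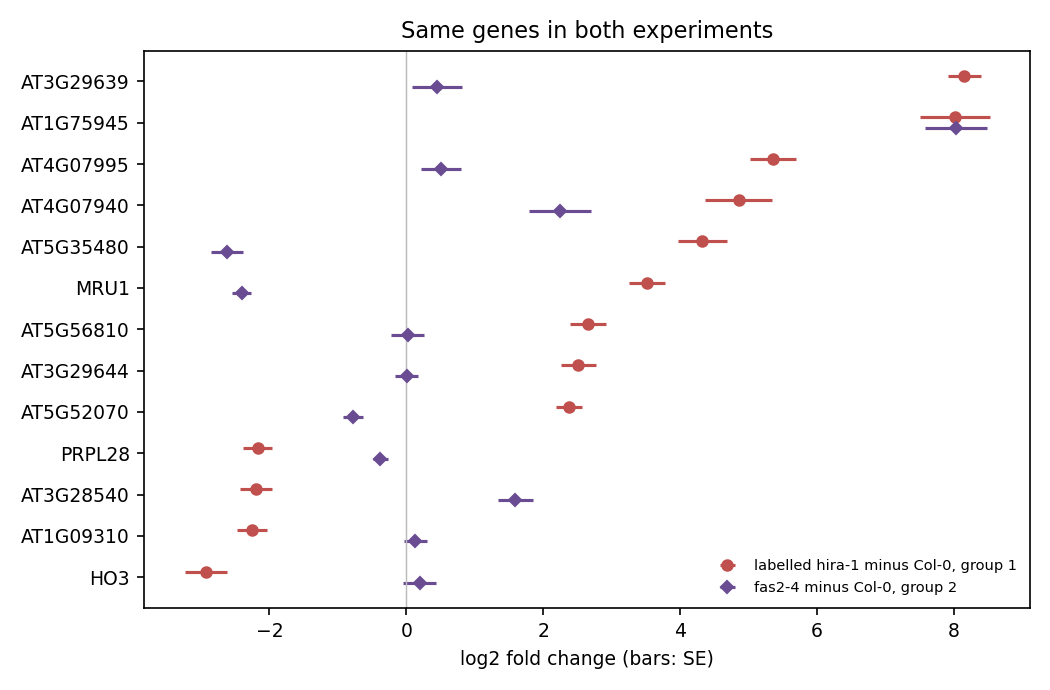
Log2 fold changes with standard errors of the 13 genes of the set that passed the filter in both experiments, in the hira-1-labelled libraries against Col-0 of group 1 (red) and in fas2-4 against Col-0 of group 2 (purple). AT1G75945 lies at about 8 in both, MRU1 and AT5G35480 lie on opposite sides of 0, and most other genes lie near 0 in fas2-4.

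Among H3-H4 chaperones, 2 of 15 tested genes were higher and 1 was lower as counted (median log2 fold change 0.06, against -0.02 over all genes tested, of which 13.7% were called). ASF1B, which passes H3-H4 to the assembly chaperones, stood at 12.3, 12.4 and 12.8 CPM in Col-0 and at 25.8, 19.6 and 24.9 CPM in the hira-1-labelled libraries (log2 fold change 0.90, SE 0.18, adjusted p = 0.0253). Its partner gene ASF1A stood at 17, 16.4 and 19.9 CPM against 26.6, 25.6 and 43.1 CPM (0.84, SE 0.23, adjusted p = 0.0454). For both the groups did not overlap, as for 19.4% of all genes tested in that direction, and ASF1A missed the threshold after length correction (adjusted p = 0.082). NAP1;1, of the nucleosome assembly protein family, fell from 63.8, 71.0 and 63.2 CPM to 36.0, 46.5 and 31.9 CPM (-0.79, SE 0.19, adjusted p = 0.0326). The partners of HIRA in its complex did not pass the test. UBN1 had a log2 fold change of -0.61 (adjusted p = 0.331, and 0.0406 with the block), UBN2 of -0.26, and CABIN1 of -0.83 (adjusted p = 0.165, and 0.0039 with the block). After length correction UBN1 and CABIN1 stood at 0.00 and 0.28. ATRX, also listed, stood at 0.15 as counted (adjusted p = 0.77) and at 1.15 after correction. Its adjusted p was then 0.0512, and 0.0016 with the block as well. ATRX was called in none of the length-corrected fits without a library. FAS1, the large subunit of chromatin assembly factor 1, had a log2 fold change of -1.17 (adjusted p = 0.0677, and 1.7e-04 with the block). After length correction it stood at -0.60 (adjusted p = 0.177), and at -0.64 (adjusted p = 0.0392) with the block as well. None of the calls in this list was made in the fits without Col-0 replicate 1, Col-0 replicate 2, or replicate 1 or 3 of the hira-1-labelled libraries.

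Of 8 H3 genes, 1 was higher and 1 lower as counted, beside 6.94% and 6.8% of all genes. HTR2, an H3.1 gene, stood at 73.7, 63.1 and 75.7 CPM in Col-0 and at 27.3, 38.0 and 41.1 CPM in the hira-1-labelled libraries (log2 fold change -1.0, SE 0.20, adjusted p = 0.0248). HTR13, which also encodes H3.1, stood at 26.1, 23.3 and 29.0 CPM against 54.4, 43.6 and 60.5 CPM (1.01, SE 0.19, adjusted p = 0.023). After length correction 4 of the 8 were lower and none higher (5.1% and 5.03% of all genes), with a median of -0.59, and HTR13 missed the threshold (0.49, adjusted p = 0.0541). The H3.3 genes HTR5 and HTR8 were among those lower after correction, at -0.76 (adjusted p = 0.0262) and -0.97 (adjusted p = 0.00633), while as counted they stood at -0.62 and -0.50 (adjusted p = 0.0682 and 0.0858, and 1.84e-05 and 3.6e-04 with the block). The other H3.3 gene, HTR4, pointed the other way, from 253, 259 and 318 CPM to 428, 348 and 475 CPM (0.59, adjusted p = 0.058, and 5.42e-05 with the block). HTA8, an H2A.Z gene, rose from 10.9, 10.3 and 12.6 CPM to 26.3, 22.2 and 25.8 CPM (1.13, SE 0.18, adjusted p = 0.019), and the linker histone gene H1.1 fell from 69.6, 60.6 and 67.1 CPM to 39.3, 42.5 and 40.3 CPM (-0.69, SE 0.16, adjusted p = 0.0302). H3 genes are near-identical in sequence, so reads could be divided wrongly among them. Without Col-0 replicate 1, Col-0 replicate 2 or replicate 1 of the hira-1-labelled libraries no H3 gene was called as counted, nor was HTA8 or H1.1. In the length-corrected fits without 1 library 2 to 4 H3 genes were called, all lower.

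Type-A response regulators, which cytokinin induces and which damp its signalling, were mostly higher. Of 8 tested, 6 were called higher and none lower as counted (6.94% and 6.8% of all genes), with a median log2 fold change of 1.06, and 4 were called higher after length correction (median 0.88). All 8 were called higher with length correction and block together, a fit that called 19.9% of all genes higher. ARR16 stood at 12.3, 11.9 and 13.1 CPM in Col-0 and at 28.4, 23.1 and 35.6 CPM in the hira-1-labelled libraries (log2 fold change 1.22, SE 0.20, adjusted p = 0.0202). ARR6 stood at 7.78, 5.94 and 8.67 CPM in Col-0 and at 27.2, 9.38 and 30.0 CPM in the hira-1-labelled libraries (1.57, SE 0.39, adjusted p = 0.0373). ARR7 stood at 25.1, 15.3 and 22.3 CPM against 60.5, 31.7 and 59.4 CPM (1.27, SE 0.29, adjusted p = 0.0302). In ARR5, ARR6, ARR7 and ARR15 replicate 2 of the hira-1-labelled libraries was the lowest of its group and closest to Col-0. ARR4 (0.79, adjusted p = 0.0616, and 3.26e-06 with the block) and ARR8 (0.39, adjusted p = 0.13, and 0.00687 with the block) did not pass as counted. In the pair of libraries with like length profiles, 7 of the 8 were higher, with a median difference of 0.20, against 50.3% of all genes tested and a median of 0.00. No member was called as counted without Col-0 replicate 1, Col-0 replicate 2 or replicate 1 of the hira-1-labelled libraries, and 1 was called without replicate 3 of the latter. With length correction 0 to 8 were called higher without a library, with none called without Col-0 replicate 1.

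**Figure D4:**
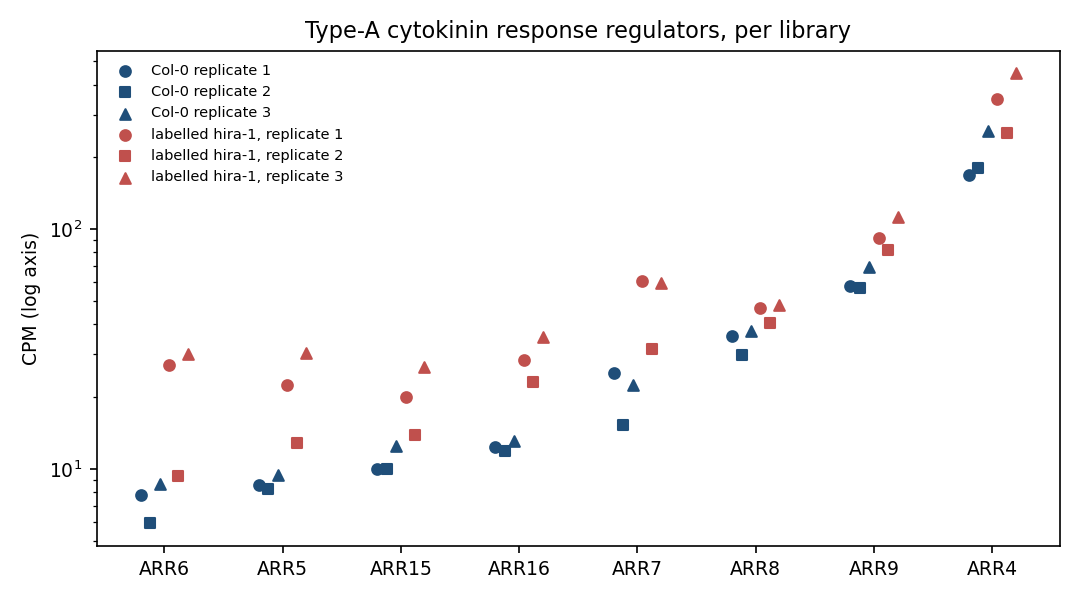
CPM of the 8 tested type-A cytokinin response regulators on a log axis, 1 symbol per library, ordered by mean level in Col-0. The libraries labelled hira-1 (red) lie above all Col-0 libraries (blue) for 7 genes and overlap them for ARR4. Of all genes tested, 19.4% had no overlap in that direction.

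Type-B response regulators, which activate these genes, are known to bind AGATT. The 200 bases before the start hold AGATT or its reverse complement AATCT in 5 of the 8 genes, and in 53.6% of the windows of all tested nuclear genes. At least 2 matches were found in 3 of the 8 (37.5%), and in 18.9% of all windows. These 3 windows are shown, with the matches in capitals, for ARR6 (chr5:25254319-25254518, minus strand), ARR7 (chr1:6579315-6579514, minus strand) and ARR16 (chr2:16969473-16969672, plus strand).
ARR6: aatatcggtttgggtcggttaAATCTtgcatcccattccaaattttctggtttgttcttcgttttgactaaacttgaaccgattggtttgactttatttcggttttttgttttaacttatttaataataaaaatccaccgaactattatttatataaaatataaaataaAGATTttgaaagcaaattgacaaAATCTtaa
ARR7: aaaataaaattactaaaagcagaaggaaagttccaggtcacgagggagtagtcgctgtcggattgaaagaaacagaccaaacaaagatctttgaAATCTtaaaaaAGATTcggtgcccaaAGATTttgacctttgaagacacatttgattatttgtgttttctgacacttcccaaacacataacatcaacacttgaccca
ARR16: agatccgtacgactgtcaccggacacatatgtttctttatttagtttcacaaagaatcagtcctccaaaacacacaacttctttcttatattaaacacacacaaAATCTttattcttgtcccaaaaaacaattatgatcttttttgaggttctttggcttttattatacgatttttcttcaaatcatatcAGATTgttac
The matches are a description of these windows and say nothing of binding.

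Of 16 tested flowering-time genes, 4 were lower and 1 higher as counted, where 6.8% of all genes were lower and 6.94% higher. MAF5, a repressor of flowering of the FLC family, stood at 1.63, 3.02 and 3.97 CPM in Col-0 and at 0.0499, 0.0889 and 0.156 CPM in the hira-1-labelled libraries (log2 fold change -4.80, SE 0.57, adjusted p = 0.00828). Its neighbour MAF4 stood at 1.76, 1.29 and 3.12 CPM against 0, 0.0889 and 0.261 CPM (-4.10, SE 0.73, adjusted p = 0.0222). Both were close to silent in the hira-1-labelled libraries. The other tested members of the same cluster on chromosome 5, MAF2 and MAF3, had log2 fold changes of 0.07 each and were not called. AGL24, an activator of flowering, fell from 28.8, 41.8 and 44.2 CPM to 14.9, 12.5 and 15.4 CPM (-1.42, SE 0.21, adjusted p = 0.0177). SPL5, which promotes the adult phase, fell by 2.28 on the log2 scale (adjusted p = 0.023), and SOC1, an integrator of flowering signals, rose from 28.3, 30.7 and 30.8 CPM to 57.5, 37.5 and 57 CPM (0.76, SE 0.20, adjusted p = 0.0413). After length correction all 5 were still called and MAF1, a long transcript, was called higher as well (1.46, adjusted p = 0.0435). MAF5 missed the threshold in 1 fit, without replicate 1 of the hira-1-labelled libraries (adjusted p = 0.0571), and AGL24 in 2, with a highest adjusted p of 0.0839 over the 6 fits. MAF4 was not called in 3 of these fits (highest adjusted p 0.109) and SPL5 in 4 (0.12). SOC1 was not called without Col-0 replicates 1 or 2, or without replicates 1 or 3 of the hira-1-labelled libraries. FT, the mobile flowering signal, was not called (0.41, adjusted p = 0.471), and FLC, TSF, CO, VIN3, SPL3 and SPL15 did not pass the filter.

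In the tetrapyrrole pathway, which makes chlorophyll, heme and bilins, 4 of 21 tested genes were lower and 1 higher as counted, beside 6.8% and 6.94% of all genes. CHLH, the large subunit of magnesium chelatase, stood at 1830.0, 2010.0 and 1140.0 CPM in Col-0 and at 501, 831 and 349 CPM in the hira-1-labelled libraries (log2 fold change -1.57, SE 0.33, adjusted p = 0.0274). With its long transcript (4757 nt) the fall was smaller after length correction, -0.69 (adjusted p = 0.0172). CHLD, a further subunit, fell by 0.61 as counted (adjusted p = 0.0483) and was not called after correction. HO4, another heme oxygenase gene, fell by 1.62 (SE 0.43, adjusted p = 0.0421), while HO1 and HO2, the other members of the family, had log2 fold changes of 0.53 and 0.45 and were not called as counted. GUN4, a regulator of magnesium chelatase, was low and rose from 0.588, 0.843 and 1.04 CPM to 3.69, 1.51 and 2.71 CPM (1.67, SE 0.42, adjusted p = 0.0375). Only HO3 was called in each fit without a library.

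Of 6 tested genes for CRM-domain proteins, which splice group II introns in chloroplasts, 2 were lower and none higher as counted. Of all genes 6.8% were lower and 6.94% higher as counted. CFM3B fell from 6.38, 7.54 and 4.2 CPM to 0.849, 1.24 and 1.15 CPM (log2 fold change -2.47, SE 0.33, adjusted p = 0.0133). CFM3A fell from 21.6, 21.3 and 12.8 CPM to 3.29, 6.67 and 0.887 CPM (-2.35, SE 0.55, adjusted p = 0.0329). Both calls held after length correction (-1.77 and -1.89), and as counted neither held without Col-0 replicate 1, Col-0 replicate 2 or replicate 1 of the hira-1-labelled libraries (highest adjusted p 0.0767 and 0.137). Among 27 light-harvesting and photosystem genes 1 was higher and 1 lower as counted, PSAG (1.06, adjusted p = 0.0321) and PSAD1 (-0.75, adjusted p = 0.0415), both subunits of photosystem I. After length correction 5 were lower and none higher (5.1% and 5.03% of all genes), and with the block added 16 were lower and 2 higher (18.5% and 19.9% of all genes). With length correction none was called without Col-0 replicate 1 or replicate 1 of the hira-1-labelled libraries. In the pair of libraries with like length profiles 22 of the 27 were lower, with a median difference of -0.19. Of the 18739 genes tested 9305 were lower there, with a median of 0.00. The summed level of the list ranged from 122200.0 to 145800.0 CPM in Col-0 and from 115100.0 to 154000.0 CPM in the hira-1-labelled libraries, so the groups overlapped. None of the 5 tested genes for Rubisco small subunits and activase was called as counted or with length correction alone. With correction and block together 1 was higher and 3 lower, beside 19.9% and 18.5% of all genes.

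Of the abundant genes, 6 falls and 6 rises with the largest change in CPM were read by a fixed rule. The falls, besides CHLH, were FBA2, GAPB, SHM1, PSBTN and GS2, which encode a Calvin cycle aldolase, a glyceraldehyde-3-phosphate dehydrogenase subunit, a photorespiratory hydroxymethyltransferase, a photosystem II subunit and a chloroplast glutamine synthetase. FBA2 stood at 6000.0, 7140.0 and 6070.0 CPM in Col-0 and at 4110.0, 4360.0 and 4370.0 CPM in the hira-1-labelled libraries (log2 fold change -0.58, SE 0.15, adjusted p = 0.0392). PSBTN fell most of these on the log2 scale after correction (-1.09 as counted, -1.58 after length correction, adjusted p = 0.00213). The 6 rises were ATPD of the chloroplast ATP synthase, TCTP, the arabinogalactan protein gene AGP15, the translation factor gene FBR12, and the ribosomal protein genes AT5G02960 and emb2171. AGP15 stood at 301, 479 and 444 CPM in Col-0 and at 794, 945 and 1510.0 CPM in the hira-1-labelled libraries (1.41, SE 0.27, adjusted p = 0.0243). The rises come from transcripts of 749 to 1151 nt and were smaller after length correction, 1.01 for AGP15 and 0.69 for emb2171, where ATPD was no longer called (adjusted p = 0.0595). Of 15 listed cytosolic ribosomal protein genes 4 were higher and none lower as counted (median 0.32), beside 6.94% and 6.8% of all genes. After correction 1 was higher and 1 lower (median -0.17), beside 5.03% and 5.1% of all genes. Without Col-0 replicate 1, Col-0 replicate 2 or replicate 1 of the hira-1-labelled libraries none of these 12 abundant genes was called as counted. With length correction PSBTN was called in all 6 fits without a library (highest adjusted p 0.0168), AGP15 in 4, and each of the others in 3 or fewer.

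Of 10 tested genes of cold and dehydration response, 3 were called lower and none higher as counted (6.8% and 6.94% of all genes), and 5 were lower after length correction (5.1% of all genes), where the median moved from -0.57 to -0.76. COR47, a dehydrin, stood at 53, 45 and 35 CPM in Col-0 and at 18, 19 and 18 CPM in the hira-1-labelled libraries (log2 fold change -1.27, SE 0.19, adjusted p = 0.0177). The dehydrin ERD10 stood at 43.6, 36.0 and 36.8 CPM against 10.7, 23.5 and 17.3 CPM (-1.18, SE 0.27, adjusted p = 0.0317), and RAB18 (AT5G66400), induced by abscisic acid, at 11.1, 3.82 and 4.79 CPM against 2.35, 1.87 and 2.40 CPM (-1.58, SE 0.42, adjusted p = 0.0411). The groups did not overlap for these 3, as for 19.2% of all genes tested in that direction. In the pair of libraries with like profiles 8 of the 10 were lower (median -0.65), against 9305 of the 18739 genes tested (median 0.00). Of 5 tested heat shock genes, 3 were lower as counted (6.8% of all genes), namely HSP70, HSP101 and HSP90.1. HSP70 stood at 5.43, 10.8 and 8.13 CPM against 1.5, 3.47 and 1.56 CPM (-1.89, SE 0.40, adjusted p = 0.0274) and was the only one of the 3 still called after length correction. For both lists no member was called as counted without Col-0 replicate 1, Col-0 replicate 2 or replicate 1 of the hira-1-labelled libraries, and with length correction none was called without either replicate 1.

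Chromatin and transcription regulators, which tend to be long transcripts, were called lower as counted in part, and many of these calls were lost with the length correction. Of all genes 6.8% were lower and 6.94% higher as counted, and in the 2 longest deciles 12.0% and 19.6% were lower. Of 19 genes of the transcription and elongation machinery 4 were lower and none higher, with a median log2 fold change of -1.04 that moved to -0.20 after correction. HAF1, a subunit of the general factor TFIID, fell from 7.60, 8.83 and 2.17 CPM to 0.549, 1.64 and 0.522 CPM (-2.75, SE 0.61, adjusted p = 0.0301, and -1.65 after correction, adjusted p = 0.0274). SPT6L and VIP4, an elongation factor and a subunit of the Paf1 complex, were also called in both fits, while MED13 of the Mediator complex went from -1.07 as counted to 0.15 after correction. In the Polycomb and trithorax list 3 of 10 were lower, the H3K27 demethylase genes REF6 and ELF6 and the H3K27me3 reader gene LHP1. After correction LHP1 remained (-0.81, adjusted p = 0.0476), and REF6 and ELF6 did not (adjusted p = 0.165 and 0.133). The remodeller gene BRM fell by 1.93 as counted (adjusted p = 0.0405) and by 0.78 after correction (adjusted p = 0.0475), and PKL, a further remodeller gene, had log2 fold changes of -1.48 (adjusted p = 0.0367) and -0.61 (adjusted p = 0.0672). SEF, of the SWR1 complex, was called higher as counted (1.18) and not after correction (0.67, adjusted p = 0.0733), and the remodeller gene SYD was called higher only after correction (1.42, adjusted p = 0.0118). Of 17 genes of DNA methylation and silencing, the maintenance methyltransferase gene MET1 and SUVH6 were lower as counted, and none was called after correction. Both phytochrome genes that were lower, PHYB and PHYC, were no longer called after correction (-0.27 and -0.11). None of the calls as counted was made without Col-0 replicate 1, Col-0 replicate 2, or replicate 1 or 3 of the hira-1-labelled libraries.

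**Figure D5:**
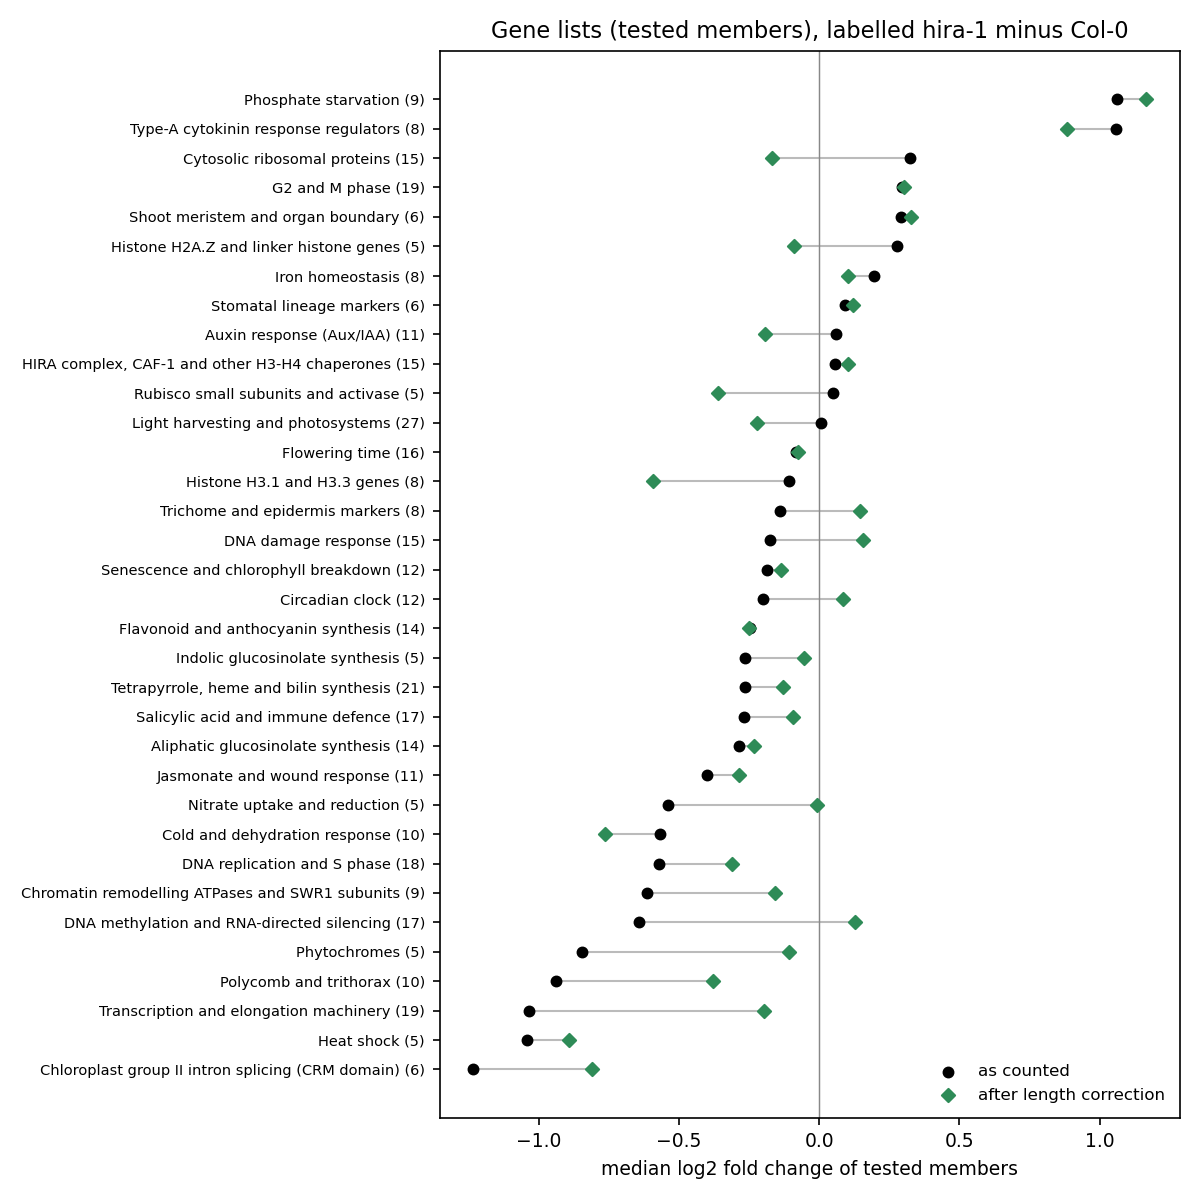
Median log2 fold change of the tested members of each gene list with at least 5 of them, as counted (black) and after length correction (green), with the number tested in brackets. The lists of phosphate starvation genes and type-A response regulators lie near 1 in both, and the list of transcription and elongation genes moves from -1.04 to -0.20.

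In S phase the ribonucleotide reductase gene TSO2 was higher (log2 fold change 0.58, adjusted p = 0.0418) and the helicase subunit gene MCM3 lower (-0.86, adjusted p = 0.0414) of 18 tested, and only TSO2 was called after correction. In G2 and M phase, of 19 tested, TOPII, a topoisomerase, fell from 12.5, 10 and 7.72 CPM to 2.5, 2.09 and 1.25 CPM (-2.37, SE 0.32, adjusted p = 0.0145), PLE, which bundles spindle microtubules, was lower (-1.96) and the kinase gene CDKB1;1 higher (0.93), all of them also after correction. TOPII was called without 4 of the 6 libraries in turn, the exceptions being Col-0 replicate 1 and replicate 1 of the hira-1-labelled libraries (highest adjusted p 0.0767). Of the DNA damage genes ANAC044, a transcription factor, was higher (1.66, adjusted p = 0.0386) and the kinase gene ATM lower (-1.43, adjusted p = 0.0495, but -0.16 after correction) of 15. Over all genes tested 6.94% were higher and 6.8% lower as counted. The counts in the S phase and DNA damage lists are near those shares. Among 9 phosphate starvation genes the median log2 fold change was 1.06, with the acid phosphatase gene PAP17 called (1.5, adjusted p = 0.0317). Its highest library was replicate 3 labelled hira-1 at 50.7 CPM, and SPX1, PS2 and PECP1 were also highest there. As counted, LNK1 was lower of 12 clock genes tested, and EDS1 and SNC1 of 17 immune genes. The sugar transporter gene SAG29 was higher of 12 senescence genes. After length correction LNK1 was still called (-0.97, adjusted p = 0.0274), while EDS1, SNC1 and SAG29 were not (adjusted p = 0.0966, 0.486 and 0.0541). Apart from TOPII, none of the genes named so far in this paragraph was called as counted without Col-0 replicate 1 or 2. The same held without replicate 1 of the hira-1-labelled libraries. No member was called as counted in the lists for shoot meristem, jasmonate, flavonoids, both glucosinolate classes, iron, nitrate and Aux/IAA genes. After correction OPR3 of jasmonate synthesis (-0.67, adjusted p = 0.0437) and IAA19 (-1.08, adjusted p = 0.0213) were lower.

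Of 3 tested root markers RHD2, a root hair oxidase, was higher (log2 fold change 1.64, adjusted p = 0.0475), and SCR and SHR stood at -0.02 and 0.06. The summed level of root markers was 28.6 to 34.4 CPM in Col-0 and 29.1 to 38.4 CPM in the hira-1-labelled libraries, with overlap. Of 6 stomatal lineage markers FAMA was lower as counted (-0.90, adjusted p = 0.0415) and not called after length correction (-0.64, adjusted p = 0.0829), and their sum was 49.4 to 63.4 CPM against 49.8 to 60.9 CPM. None of 8 trichome and epidermis markers was called as counted, and CER1, of wax synthesis, was higher after correction (0.74, adjusted p = 0.043). Neither RHD2 nor FAMA was called as counted without Col-0 replicate 1, Col-0 replicate 2, or replicate 1 or 3 of the hira-1-labelled libraries. All 5 seed and embryo markers were too low to test. These counts of markers stand beside 6.94% of all genes higher and 6.8% lower as counted. The part of tissue composition in the results above was not tested.

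By class of gene, 36 of 100 tested genes annotated as ncRNA were higher and none lower as counted (median log2 fold change 0.88), and 31 of 151 lncRNA genes were higher and 1 lower (median 0.70). Over all genes tested 6.94% were higher and 6.8% lower, and in the shortest decile 20.8% and 1.87%. The ncRNA and lncRNA genes are short transcripts, with median exon lengths of 869 and 702 nt, and their medians fell to 0.43 and 0.35 after length correction. For 71 snoRNA genes the count was 18 higher and none lower, with a median that went from 1.03 to 0.18. With length correction and block together 42 ncRNA genes were higher and 6 lower, and 41 and 6 lncRNA genes. For snoRNA genes 13 were higher and 7 lower. That fit called 19.9% of all genes higher and 18.5% lower. Genes of the organelles went the other way, with 24 of 106 lower and 2 higher as counted. Their median log2 fold change was -0.28 as counted and -0.79 after length correction. The organellar share of all counts was 0.446%, 0.458% and 0.297% in the Col-0 libraries, against 0.0796%, 0.111% and 0.252% in the hira-1-labelled ones. Replicate 3 of the latter was close to replicate 3 of Col-0, and the groups did not overlap. Called genes on the nuclear chromosomes were 12.7% to 14.0% of the genes tested on each. Within 1 Mb of HIRA 13 of 152 tested genes were higher and 8 lower (13.8% called).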

How the data were processed

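Each experiment came with a table of whole-number read counts for every gene, deposited by the authors, and with a second table of TMM-scaled TPM, a score per gene made by the authors, which was used here only to recover the transcript lengths behind the counts. Column kits were used to extract total RNA, and BGI built the libraries, per the labels' protocols. The submitters' processing notes name fastp 0.23.4, HISAT2 2.2.1 and the build TAIR10. The counting program, its use of strand and the annotation version are not given in the sources used here. Of 32833 counted genes, 32548 matched the RefSeq annotation of TAIR10.1 by identifier, which gave exon lengths, positions and the upstream windows, and 10082 overlap another counted gene.

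Low counts were removed by filterByExpr, TMM factors were computed, and groups were tested 2-sided with edgeR 4.0.16 in R 4.3.3 (robust glmQLFit, glmQLFTest). Calls were made at an adjusted p (Benjamini-Hochberg) under 0.05. For the length correction, a lowess curve (span 0.3) of each library's deviation on log2 exon length was added to its offset. The fits were tested on simulated data with known changes. DESeq2 1.42.0 was an alternative. Alternatives chosen after seeing the data were the length correction with each library left out, and the pair of libraries with like length profiles. Gene bodies were aligned with Biopython 1.88 (local, match 2, mismatch -3, gap opening -5, extension -2). Intervals and floors (3 counts) cover counting error only.

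The labels give replicates 1 to 3 in each group, which was read as a pairing because deviations of same-numbered libraries from their group means correlated at 0.269, 0.518 and 0.619 across genes (0.277, 0.411 and 0.505 after length correction). The pairing rests on the data and not on a stated shared batch. The block was kept as an alternative. Named genes were HIRA, the chaperone and H3 lists, up to 12 rises and 12 falls among the genes called in every fit with a group mean of at least 5 CPM (15 of the 17), the 6 largest rises and 6 largest falls in mean CPM among genes called both as counted and with length correction and block, and up to 4 called members of each list with the smallest adjusted p, or up to 2 with the smallest p where none was called. AT2G10975 and AT4G07940, the other genes called in every fit, are below 5 CPM. They, neighbours, sequence relatives and the other list members named were added after their values were seen. The 37 gene lists (446 genes, 396 tested) and all members were chosen with earlier results of these data known.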

Additional observations from a re-analysis of the deposited data

Results flagged for a closer look

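For 14 of the 17 genes called in every fit, the effect in the libraries labelled hira-1 differed from the effect of fas2-4 by an edgeR test of the difference itself over all 12 libraries. The 17 were chosen on the first of these effects, so the share is a description. Of all 20152 genes in that test 11.6% differed. As log2 differences, the effect was larger in the libraries labelled hira-1 by 7.72 for AT3G29639, 6.98 for AT1G36675, 6.94 for AT5G35480, 6.91 for AT1G06993, 5.93 for MRU1 and 4.86 for AT4G07995. The difference was 3.17 for AT5G52070, 2.69 for AT4G07940, 2.66 for AT5G56810 and 2.52 for AT3G29644. It was -1.78 for PRPL28, -2.37 for AT1G09310, -3.12 for HO3 and -3.77 for AT3G28540. AT4G07940 was called in 3 and AT1G06993 in 10 of the 12 fits that left out a library, and the other 12 genes in all 12. With length correction AT4G07940 did not pass (adjusted p = 0.104).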

How the results depend on the processing

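The number of genes called depended most on single libraries. From 2575, it ranged from 19 to 5021 when a library was left out, and with the length correction as well, a setting chosen after seeing the data, it was 114, 291 and 1749 without Col-0 replicates 1, 2 and 3 and 276, 2784 and 468 without replicates 1, 2 and 3 of the hira-1-labelled libraries. It was 9593 with the replicate block, 7204 with block and length correction, 4502 with DESeq2 and 1388 when 2-fold changes were also required. It stayed within 1.5 times under length correction alone (1898), other scalings (2570 with RLE, 2401 with upper quartile), no filter (2691), a minimum of 5 CPM (2274) and without organellar genes (2527). List members called, 66 as counted, numbered 220 with the block, 178 with block and length correction, 105 with DESeq2, 56 with length correction, and 2 to 124 without a library. The replicate block adds calls, and it changed no call among the 17 genes. The length trend was -0.588 with a minimum of 5 CPM and ran from -0.58 to -0.469 without a library. The count of genes that differed from fas2-4 was 12 to 16 of 17 under all alternatives. MED13 changed sign, to 0.153 with length correction, 0.152 with the block added, and 0.076, 0.1, 0.292, 0.043, 0.319 and 0.09 in length-corrected fits without a library, in the same order. NRP1 went to -0.256 with both, and PHYC to 0.014 with length correction and without Col-0 replicate 3. Some genes called neither as counted nor with length correction changed sign between these fits too. Among them were CABIN1 (-0.83 to 0.28), HTR9 (0.34 to -0.15), UBN2 (-0.26 to 0.10) and NRP2 (0.12 to -0.11). In each case the cause was not tested. With 3 libraries a group, fits without a library leave 2 against 3.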
